A study of Mus musculus with 6 samples.

Results

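Probe sets of 6 transcription factor genes, nuclear receptors and patterning factors, were followed in the optic fissure of mouse embryos. The embryos did or did not carry a Cre driver directed against the FGF receptors Fgfr1 and Fgfr2. The genes were Nr2f1, Nr2f2, Nr2f6 and Nr2e1, which encode orphan nuclear receptors, Foxd1, which encodes a forkhead factor, and Fezf2, which encodes a zinc finger factor and is not a Fox gene. Every probe set that the platform annotation assigns to 1 of these symbols alone was taken, which gave 13 of the 45101 probe sets of the array, for 6 of the 18193 genes with a symbol of their own. Nr2f2 had 6 probe sets, Nr2f6 and Nr2e1 had 2 each, and Nr2f1, Foxd1 and Fezf2 had 1 each. Of the 13, 11 were bright enough to be tested, and the dimmest Nr2f2 and the dimmer Nr2e1 probe set were not.

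The optic fissure is a cleft on the ventral side of the developing eye, through which vessels enter and ganglion cell axons leave before it closes. It was cut out by laser microdissection at E11.5 from C57BL/6J embryos, in all of which both receptor genes were flanked by loxP sites on both alleles (Fgfr1fx/fx;Fgfr2fx/fx). The 3 control samples lacked the Six3Cre transgene (Six3Cre-) and the 3 FGFR mutant samples carried it (Six3Cre+). Six3 regulatory sequence drives Cre in the eye field and ventral forebrain, so mesenchyme, vessels and blood in the same tissue keep their receptors. Each sample was hybridised to 1 Affymetrix array. The titles carry the numbers 8711, 9216 and 9266, each once in either group. Nothing in the labels tells whether the samples were single embryos, litters or pools, so p-values cover only the spread among these samples, and that spread may be technical.

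Nr2f1 and Nr2f2, also called COUP-TFI and COUP-TFII, are close paralogs that bind direct repeats of the nuclear receptor element and mostly repress transcription. In mouse they act together in the early eye, where their loss disturbs the optic cup and stalk. Nr2f6 belongs to the same subfamily. Nr2e1, the mouse homologue of fly tailless, is a repressor that keeps retinal and forebrain progenitors cycling. Foxd1 marks the temporal side of the retina and is also expressed in mesenchymal stroma. Fezf2 is a transcriptional repressor expressed in forebrain progenitors and in deep layer cortical neurons.

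The Nr2f1 start shown here and the Nr2f2 start lie in unlike sequence, and their windows are given with that of Nr2e1. Any relation of the sequences to the values below was not tested. Each line gives the 250 bases before a start in RefSeq, build GRCm38.p6, 5′ to 3′ on the gene's own strand, which is the minus strand for all 3. Capitals mark CG dinucleotides. The windows are chr13:78198874-78199123 for Nr2f1, chr7:70366747-70366996 for Nr2f2 and chr10:42583591-42583840 for Nr2e1, each outside and directly upstream of the annotated gene.
Nr2f1: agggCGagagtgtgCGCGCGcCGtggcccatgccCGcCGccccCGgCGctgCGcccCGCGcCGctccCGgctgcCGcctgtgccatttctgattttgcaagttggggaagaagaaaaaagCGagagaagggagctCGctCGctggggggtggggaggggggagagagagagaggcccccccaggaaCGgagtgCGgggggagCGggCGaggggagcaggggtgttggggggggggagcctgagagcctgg
Nr2f2: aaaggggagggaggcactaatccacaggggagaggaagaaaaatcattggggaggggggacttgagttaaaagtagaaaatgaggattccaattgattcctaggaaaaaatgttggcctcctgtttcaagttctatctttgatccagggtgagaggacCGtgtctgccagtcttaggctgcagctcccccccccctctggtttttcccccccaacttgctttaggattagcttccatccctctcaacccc
Nr2e1: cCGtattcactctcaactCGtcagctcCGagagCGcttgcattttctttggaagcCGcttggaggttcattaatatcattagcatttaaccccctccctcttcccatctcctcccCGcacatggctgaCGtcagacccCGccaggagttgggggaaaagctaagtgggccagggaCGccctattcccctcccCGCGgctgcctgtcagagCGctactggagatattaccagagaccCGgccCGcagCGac
The Nr2f1 window held 22 CG dinucleotides and was 72.0% G or C, the Nr2f2 window held 1 and was 50%, and the Nr2e1 window held 15 and was 58.0%. Over all 32851 promoter windows of this length the median was 6 CG dinucleotides and 52.4% G or C. All 6 genes matched an entry. Nr2f1 had a further start, whose window (chr13:78196450-78196699, minus strand) was 39.6% G or C with 2 CG dinucleotides. The windows were searched on both strands for AGGTCA, the core nuclear receptor element (in 14.0% of all windows), AAGTCA, the element preferred by Nr2e1 (13.1%), TGTTTAC, a forkhead element (3.17%), CCGGAA, an ETS factor core (12%), and TAATTA, a homeodomain element (4.84%). The only match in the 7 windows of the 6 genes was TGTTTAC, once, at the further Nr2f1 start. No binding or methylation was measured here, so these letters are a description.

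The arrays were not of equal quality, and the mutant 8711 array stood apart. The ratio of 3 prime to 5 prime signal of the Gapdh control probe sets was 93.6 there and 4.26 to 15 elsewhere, and its median intensity was 18.1 against 28.7 to 34.6. It held the lowest of the 6 values for 38.3% of the 27022 probe sets tested and for 5 of the 11 tested member probe sets. The differences of the tested member probe sets are therefore given with and without it. The Fgfr2 probe set with the highest signal had 380 ± 83.7 (SD, n = 3) in controls against 1038 ± 243 (SD, n = 3) in mutants, and the Fgfr1 probe set 192 ± 88.2 (SD, n = 3) and 88.5 ± 45.9 (SD, n = 3), the latter with overlapping groups. Where these probes lie relative to the floxed parts was not analysed here, so they do not check the genotypes. All 9 optic stalk and fissure markers were bright enough to be tested, with Aldh1a3 at 5583 ± 622 (SD, n = 3) in the controls, but so were 13 of 14 pigment epithelium markers, with Dct at 3147 ± 813 (SD, n = 3), so the control tissue gave signal for both. In the mutants 7 of the 9 stalk and fissure markers were lower and 2 higher, with a median of -1.19 log2 units, and their sums were 15575 to 17220 in the controls and 7875 to 12476 in the mutants. At an unadjusted p under 0.05, 5 of them were lower and 1 higher, beside 2.52% and 4.4% of all genes tested, and 0 passed adjustment. These are markers of the dissected tissue itself, and the part of their levels in the differences of the members was not tested.

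Fezf2, and Nr2e1 by the brighter of its probe sets, were below all controls in every mutant array, the latter by a narrow margin. The Nr2f2 probe sets differed among themselves, from -0.29 to 0.96 log2 units in the 5 tested, and Nr2f1 differed little between the groups. No member probe set passed the test over all probe sets. In limma, 0 of 27022 probe sets passed an adjusted p of 0.05 (0.0%), so every difference below is a measured value and not a call. At an unadjusted p under 0.05, 1 of the 11 tested member probe sets was higher in the mutants and 2 were lower, beside 3.02% and 2.55% of all probe sets tested. The groups were fully separated in 3 of the 11, 1 with mutants above and 2 with mutants below, beside 7.08% and 6.39% of all probe sets. Without the mutant 8711 array, 1 probe set of the table passed (0.0037%), not a member, while 2 member probe sets were higher and 2 lower by an unadjusted p under 0.05, beside 5.01% and 3.7%. In the 2 remaining mutant arrays 4 member probe sets lay below all controls, beside 11.0% of all. The precision of each difference is limited by having only 3 arrays in a group.

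**Figure D1:**
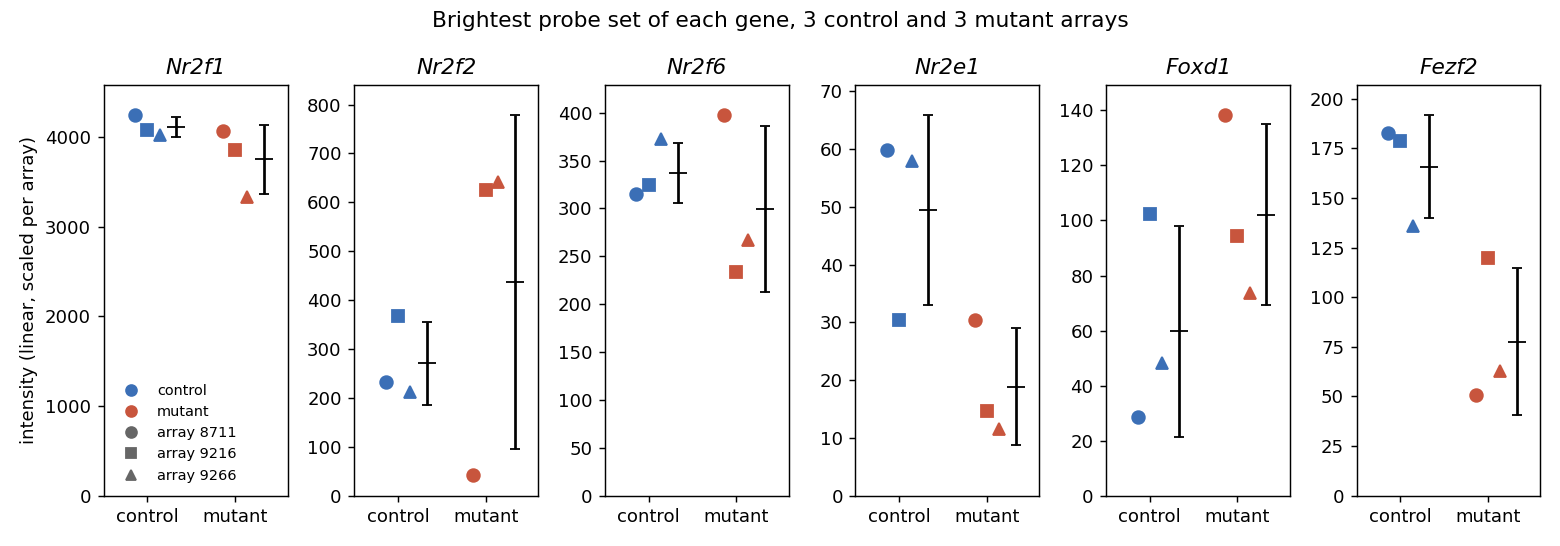
Intensity (linear scale from 0) of the brightest probe set of each of the 6 genes in 3 control (blue) and 3 mutant (red) arrays, with symbols for the number in the title and black bars for mean ± SD. These Nr2e1 and Fezf2 probe sets lie below all controls in every mutant array, Nr2f1 lies between 3328 and 4243 in all arrays, and Nr2f2 is split among the mutants.

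Nr2f1 was bright and nearly level. Its probe set had intensities of 4242.8, 4079.3 and 4023.2 in controls (8711, 9216 and 9266, the order used for all genes below) against 4066.7, 3861.2 and 3328.0 in mutants. The groups overlapped, through the mutant 8711 value, and the 2 other mutant arrays lay below all controls. Means were 4115 ± 114 (SD, n = 3) in controls against 3752 ± 381 (SD, n = 3) in mutants, differing by -0.14 log2 units (SE 0.13, limma adjusted p = 0.852), and from -0.20 to -0.05 with any 1 array left out. The 95% interval ran from -0.44 to 0.16, which is 0.737 to 1.12 times the control level, so a change of 2-fold in this probe set lies outside it.

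For Nr2f2 the probe sets did not tell the same story. The brightest, 1416159_at, had 232.6, 367.5 and 212.2 in controls against 43.2, 625.0 and 642.6 in mutants. The mutant 8711 array was below every control and the other mutant arrays were above every control. Over all arrays its log2 difference was -0.01 (SE 1.02, limma adjusted p = 0.999, 95% interval -2.44 to 2.42), and without mutant 8711 it was 1.26. Probe set 1444229_at had the same shape, with 114.2, 246.7 and 120.3 against 17.0, 519.3 and 317.5, and a difference of -0.06 (SE 1.21) or 1.42 without mutant 8711. Probe set 1416160_at, with 109.1, 97.9 and 56.4 against 21.1, 121.8 and 123.9, had -0.29 (SE 0.71) or 0.53. These 3 of the 5 tested Nr2f2 probe sets had mutant 8711 below all controls and the other mutants above all controls, a pattern that 4.83% of all tested probe sets showed.

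In 2 other Nr2f2 probe sets the mutant 8711 array was not low. Probe set 1436475_at had 149.1, 138.9 and 148.3 in controls against 320.6, 255.8 and 182.4 in mutants. Every mutant array was above every control, with mutant 8711 the highest. Means were 145 ± 5.67 (SD, n = 3) in controls against 253 ± 69.1 (SD, n = 3) in mutants, differing by 0.75 log2 units (SE 0.27, limma adjusted p = 0.838, 95% interval 0.12 to 1.39), or 0.57 without mutant 8711. Probe set 1416158_at had 120.1, 55.2 and 113.7 against 191.3, 120.1 and 250.4, so that the lowest mutant value equalled the highest control. Its difference was 0.96 (SE 0.42, limma adjusted p = 0.852), or 0.92 without mutant 8711 and 0.61 without control 9216. The dimmest, 1431237_at, lay between 4.5, in mutant 8711, and 17.9 in all arrays, under the filter level of 15.1 on average, with overlapping groups. In the 2 mutant arrays other than 8711, 4 of the 5 tested Nr2f2 probe sets were above all controls, beside 14.5% of all tested probe sets, and the fifth was level with 1 control in 1 of them. The probe sets 1416158_at, 1416159_at and 1416160_at share 1 source sequence in the annotation, and all 6 share the gene, so they are not replicates. Where each probe set lies in the transcript was not analysed here, and the part of RNA quality in the split was not tested.

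**Figure D2:**
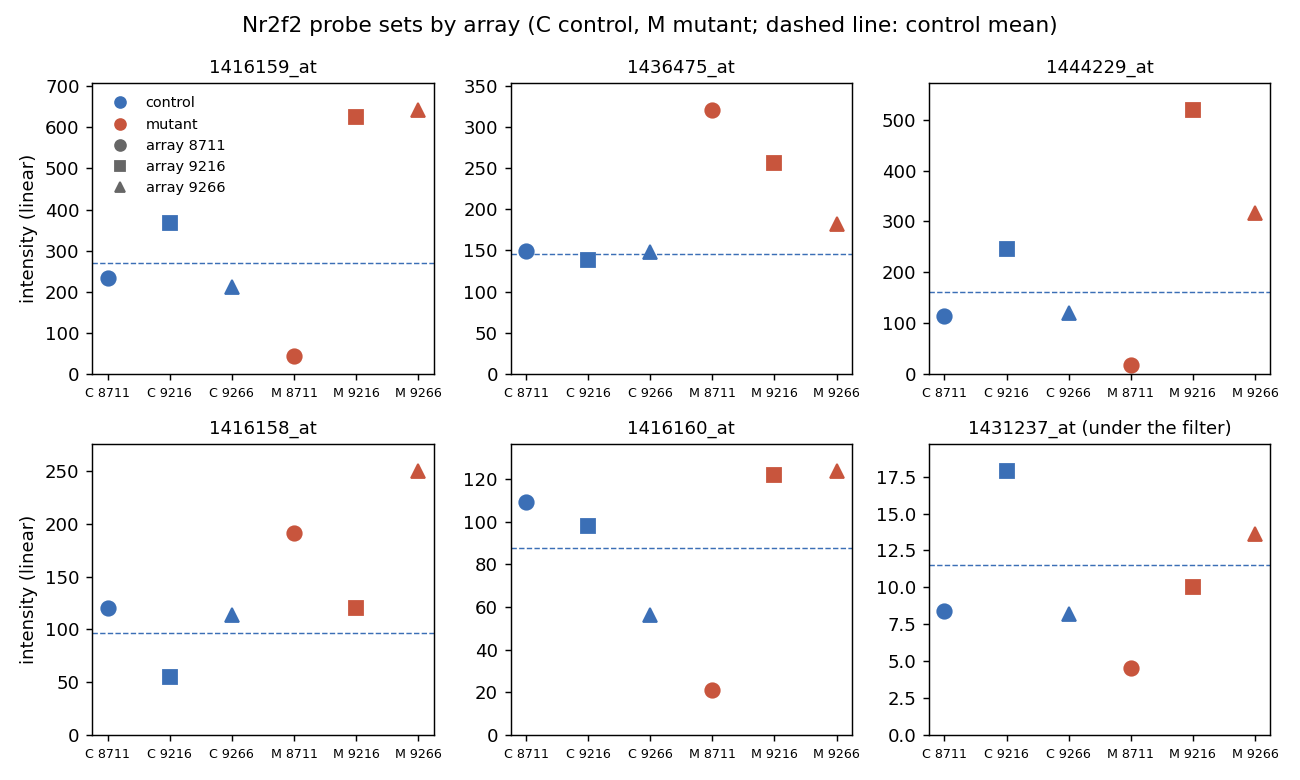
Intensity (linear scale from 0, a separate range in each panel) of the 6 Nr2f2 probe sets in each array, controls (C, blue) and mutants (M, red), with the control mean as a dashed line. The mutant 8711 array is the lowest of all in 4 panels and the highest of all in 1436475_at, where it reads 320.6.

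Both Nr2f6 probe sets had a lower mean in the mutants, with intervals that include 0. Its brighter probe set, 1460647_a_at, had 315.0, 324.1 and 372.7 in controls against 397.3, 233.2 and 267.4 in mutants, with mutant 8711 the highest of all and the other mutants below all controls. The log2 difference was -0.21 (SE 0.26, limma adjusted p = 0.872), or -0.43 without mutant 8711. The other, 1460648_at, had 410.3, 206.5 and 390.5 against 127.9, 159.6 and 340.1, with mutant 8711 the lowest, and a difference of -0.75 (SE 0.44, limma adjusted p = 0.852), or -0.46 without that array. The groups overlapped in both. The 95% intervals, -0.81 to 0.40 and -1.80 to 0.31, hold no difference as well as a fall of 1.5-fold.

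Nr2e1 was dim and lower in the mutants. Probe set 1434921_at had 59.9, 30.5 and 57.9 in controls against 30.4, 14.7 and 12 (rounded) in mutants. The highest mutant value was just under the lowest control value, 30.4 in mutant 8711 against 30.5 in control 9216, and within each title number the mutant was lower. Means were 49.4 ± 16.4 (SD, n = 3) in controls against 18.9 ± 10.1 (SD, n = 3) in mutants, differing by -1.36 log2 units (SE 0.47, limma adjusted p = 0.819, 95% interval -2.47 to -0.25). With 1 array left out it ran from -1.74, without mutant 8711, to -1.10, without mutant 9266. The second probe set, 1457289_at, had 13.3, 33.2 and 9.1 against 3.1, 14.8 and 20.9, with overlapping groups, and was not tested because of its low signal.

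Fezf2 was the member with the smallest p over all 6 arrays. Without mutant 8711 its limma adjusted p was 0.487, and those of Nr2e1 (limma adjusted p = 0.235) and of the Nr2f2 probe set 1416159_at (limma adjusted p = 0.209) were smaller. Its probe set had 182.6, 178.8 and 136.0 in controls against 50.7, 119.7 and 62.6 in mutants. The groups did not overlap, and the mutant was lower within each title number, with log2 differences of -1.81 for 8711, -0.57 for 9216 and -1.10 for 9266. Means were 166 ± 25.9 (SD, n = 3) in controls against 77.7 ± 36.9 (SD, n = 3) in mutants, differing by -1.16 log2 units (SE 0.37, limma adjusted p = 0.744, 95% interval -2.04 to -0.28), or -0.91 without mutant 8711.

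Foxd1 had a higher mean in the mutants with overlapping groups. Its probe set had 28.6, 102.5 and 48.1 in controls against 138.2, 94.5 and 73.6 in mutants. Control 9216 was above 2 of the mutant arrays, and the other controls were below all of them. Means were 59.7 ± 38.3 (SD, n = 3) in controls against 102 ± 33.0 (SD, n = 3) in mutants, differing by 0.90 log2 units (SE 0.50, limma adjusted p = 0.852, 95% interval -0.30 to 2.09). It was 1.37 without control 9216 and 0.48 without control 8711, and 0.24 without both 8711 arrays, so it rests largely on those arrays.

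**Figure D3:**
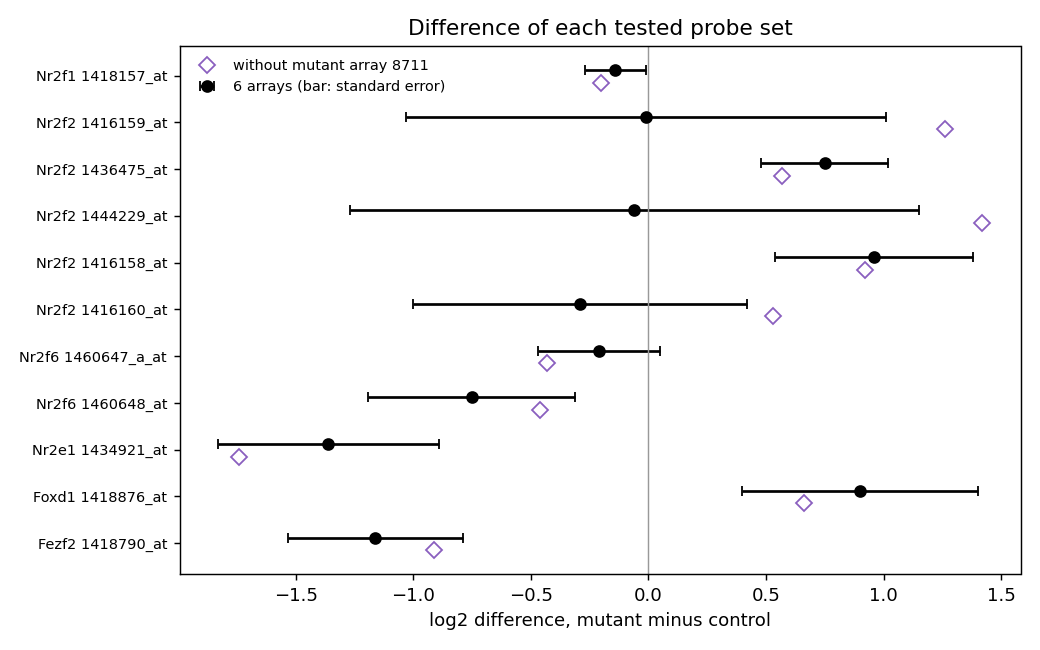
Log2 difference, mutant minus control, of the 11 tested member probe sets from all 6 arrays (black, with its standard error) and without the mutant 8711 array (open diamonds). Fezf2 and Nr2e1 stay below 0 and 1436475_at and 1416158_at of Nr2f2 above 0 in both, while 3 Nr2f2 probe sets change sign.

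The levels of cell type markers moved with the groups too, and their part in the differences of the members was not tested. In bulk tissue, fewer cells of a type and less RNA per cell cannot be told apart. The intensities of the 14 periocular mesenchyme markers on the array, the tissue that also expresses Nr2f2 and Foxd1, summed to 1150 to 2446 in the controls and 2897 to 3406 in the mutants. All 12 tested were higher, beside 53.6% of all genes tested. At an unadjusted p under 0.05, 3 were higher and 0 lower, beside 4.4% and 2.52% of all genes, and none passed the adjusted threshold. Their median was 0.74 log2 units, and 0.22 without control 9216. Twist1 was near background, with 13.5 ± 5.89 (SD, n = 3) in controls against 46.3 ± 8.0 (SD, n = 3) in mutants. Its control mean lay under the filter level of 15.1, so it entered the test, and the count of higher markers, only through its mutant values. Control 9216 had the lowest mesenchyme sum, 1150. Among the controls it also had the highest values of Foxd1 and of 1416159_at, and the lowest of the Nr2f2 probe sets 1416158_at and 1436475_at. The 12 vascular endothelial markers, whose venous cells express Nr2f2, summed to 424 to 818 in the controls and 334 to 654 in the mutants, with 4 of 10 tested higher. None of the markers on the array was at 0 in every array.

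Neural retina progenitor markers were lower beside Nr2e1 and Fezf2. The 10 on the array summed to 6852 to 9041 in the controls and 3193 to 4565 in the mutants, and the 9 tested were lower (median -1.36 log2 units) except Lhx2, which was level (0.00, SE 0.23). Pigment epithelium markers summed to 13882 to 16014 in the controls and 22960 to 34146 in the mutants. All 13 tested were higher, beside 53.6% of all genes, and 10 of them at an unadjusted p under 0.05, beside 4.4%.

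Other members of the same families went both ways. Of 44 other nuclear receptors listed, 22 were tested, of which 16 were higher and 6 lower in mutants, at a median of 0.27 log2 units beside 0.03 over all 12282 genes tested, 53.6% of which were higher. At an unadjusted p under 0.05, 3 were higher and 0 lower, beside 4.4% and 2.52% of all genes, and 0 passed adjustment. The median was 0.14 without control 9216, 0.12 without the filter on dim probe sets, 0.09 with the mean of all tested probe sets of a gene and 0.51 without both 8711 arrays. Rxrg, a retinoid X receptor, had 89.4 ± 34.8 (SD, n = 3) in controls against 368 ± 157 (SD, n = 3) in mutants, differing by 1.98 log2 units (SE 0.43, limma adjusted p = 0.506). Nr3c1, the glucocorticoid receptor, had 0.79 (SE 0.25), and Rarb, a retinoic acid receptor, 0.97 (SE 0.38), with overlapping groups. Hnf4a, at low signal, had 0.86 (SE 0.38). Its control mean of 13.1 lay under the filter level of 15.1, so it entered the test, and the count of higher genes, only through its mutant values. Of 25 cofactors of these receptors, 23 were tested, 11 higher and 12 lower, with a median of 0.00. Only 1 was lower at an unadjusted p under 0.05, beside 2.52% of all genes. That 1 was Zfpm1, a zinc finger partner of GATA factors, with -1.17 (SE 0.49) and overlapping groups. Mta1 and Mta2, subunits of the NuRD complex, had -1.33 (SE 0.61) and -0.69 (SE 0.38), or -0.73 and -0.30 without mutant 8711, which had the lowest value of both, and Rcor2, a CoREST subunit, had -1.44 (SE 0.75).

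Of 40 other Fox genes, 20 were tested, 11 higher and 9 lower. An unadjusted p under 0.05 was reached by 1 higher and 2 lower genes, beside 4.4% and 2.52% of all genes. The median of the Fox list, 0.08, turned to -0.23 with the mean of all tested probe sets of a gene. It turned to -0.01 without the filter, so the list has no settled direction. Foxn4, a forkhead factor of retinal progenitors, had 67.8 ± 24.9 (SD, n = 3) in controls against 28.9 ± 8.48 (SD, n = 3) in mutants, differing by -1.16 log2 units (SE 0.41, limma adjusted p = 0.836). Foxk2 had -0.79 (SE 0.26), Foxp2 0.60 (SE 0.22) and Foxl2 -0.69 (SE 0.33), and in each of these 4 the groups did not overlap. Hmx1, a homeobox gene of the nasal retina, had 643 ± 236 (SD, n = 3) in controls against 232 ± 72.3 (SD, n = 3) in mutants, differing by -1.43 log2 units (SE 0.37, limma adjusted p = 0.587), the smallest p of the 20 tested genes of retinal axis patterning. In that list Epha7, an ephrin receptor gene, had 1.06 (SE 0.30), Vax1, a homeobox gene of the stalk, -1.74 (SE 0.51), and Smoc1, a secreted calcium binding protein, -1.27 (SE 0.47). Of the 20, 6 were higher and 14 lower, with a median of -0.23. An unadjusted p under 0.05 was reached by 1 higher and 4 lower genes, beside 4.4% and 2.52% of all genes. Of these lower genes, Vax1, Smoc1 and Aldh1a3 are also counted among the lower stalk and fissure markers, so the counts of those lists are not independent.

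Forebrain and eye field genes, the company of Nr2e1 and Fezf2, were divided. Of 27 listed, 17 were tested, 8 higher and 9 lower with the level Lhx2 counted among the latter. The median was 0.00, or -0.38 without mutant 9266. An unadjusted p under 0.05 was reached by 2 higher and 3 lower genes, beside 4.4% and 2.52% of all genes. Six6, which encodes an optic cup homeodomain factor, had -1.11 (SE 0.23), and Rax, which defines the eye field, had 278 ± 62.8 (SD, n = 3) in controls against 130 ± 68.3 (SD, n = 3) in mutants, differing by -1.20 log2 units (SE 0.42, limma adjusted p = 0.836). Six6, Rax and Lhx2, among others, are also counted among the neural retina progenitor markers, so the counts of those lists are not independent. Otx2, which promotes pigment epithelium, had 1478 ± 172 (SD, n = 3) in controls against 4063 ± 2038 (SD, n = 3) in mutants, differing by 1.33 log2 units (SE 0.38, limma adjusted p = 0.684), and Pax6 had 0.51 (SE 0.16). Fezf1, the paralog of Fezf2, was under the filter level.

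Genes reported elsewhere as downstream of Nr2f2, Nr2f1 or Nr2e1 were counted as a list, and 13 of 20 were tested. Of these 9 were higher and 4 lower, with a median of 0.38. The list does not separate genes reported as raised from those reported as lowered, so the counts do not read receptor activity. An unadjusted p under 0.05 was reached by 5 higher and 0 lower genes, beside 4.4% and 2.52% of all genes, and 0 passed adjustment. The median was 0.06 without the filter on dim probe sets and 0.22 with the mean of all tested probe sets of a gene. Otx2 and Pax6 are also in the list above, and further genes of this list are in other lists here, so the lists are not independent. Hey2, a Notch effector, had 22.2 ± 3.01 (SD, n = 3) in controls against 53.4 ± 18.3 (SD, n = 3) in mutants, differing by 1.16 log2 units (SE 0.35, limma adjusted p = 0.709), and Nrp2, a semaphorin and VEGF co-receptor, had 71.9 ± 14.3 (SD, n = 3) in controls against 161 ± 59.0 (SD, n = 3) in mutants, differing by 1.10 log2 units (SE 0.34, limma adjusted p = 0.729). In both the groups did not overlap. Binding of these receptors to any of the genes was not measured here.

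**Figure D4:**
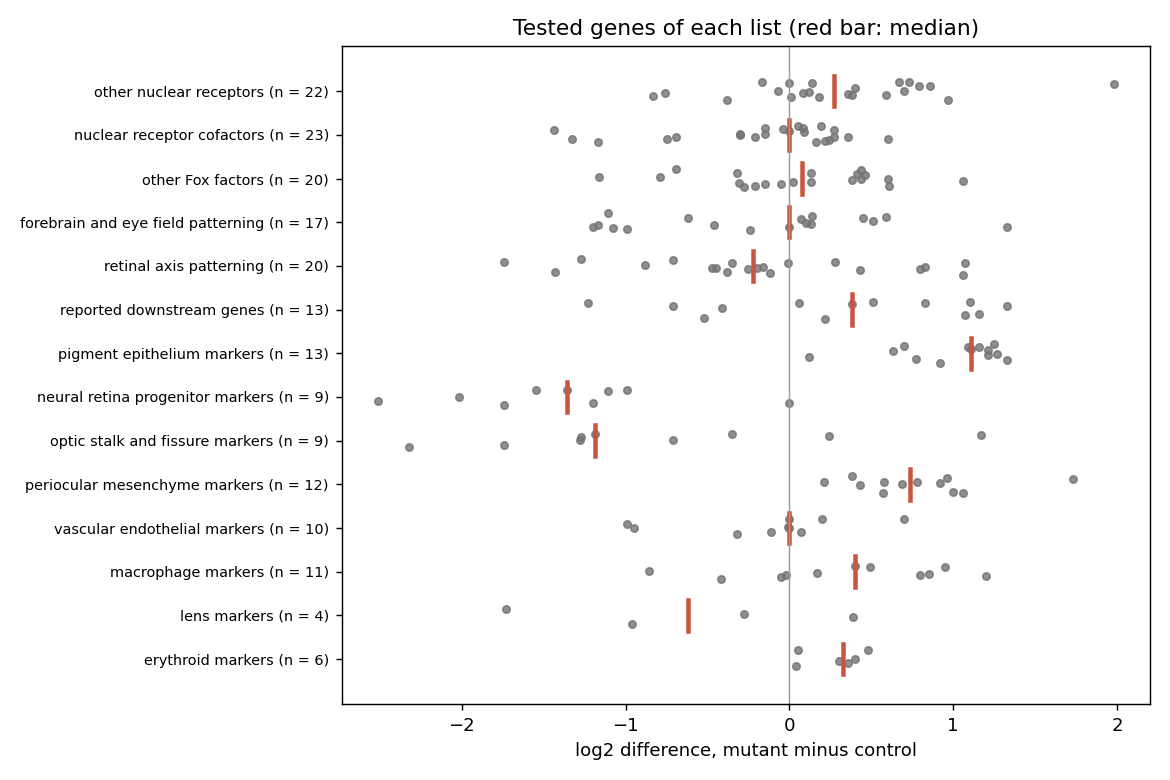
Log2 difference, mutant minus control, of each tested gene of the related lists and the cell type marker lists (grey points, 1 probe set per gene), with the list median in red. Points of the nuclear receptor, cofactor, Fox and forebrain lists lie on both sides of 0, while pigment epithelium markers lie above 0 with a median of 1.11 and neural retina progenitor markers at or below it with a median of -1.36.

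The genes whose values over the 6 arrays were most like each member were found by Pearson's r among 12281 other genes. With 6 arrays that share their quality differences, many genes reach a high r, so the names are a description. For Nr2e1 they were Kif18b (r = 0.995), a mitotic kinesin gene, Ezr (0.989), which encodes ezrin, and Rhou (0.985), and 46 genes had an r over 0.95. For Fezf2 they were Rell1 (0.983), Lockd (0.982) and Ncaph2 (0.982), with 32 genes over 0.95. For Foxd1 they were Oxr1 (0.995), Znf41-ps (0.992) and Hsd17b4 (0.987). For Nr2f1 they were Qtrt2 (0.997), Itga8 (0.990) and 4833427F10Rik (0.986), and for Nr2f6 Dynlt1f (0.979), Cdkn2c (0.973) and Cct7 (0.972). The brightest Nr2f2 probe set had Tmtc2 (0.993), Rab3gap1 (0.991) and Rpl27a (0.989), with 127 genes over 0.95, the most of any member. Its r with the Nr2f2 probe sets 1444229_at and 1416160_at was 0.99 and 0.95, but with 1436475_at it was -0.44 and with 1416158_at -0.16, over the same 6 arrays.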

How the data were processed

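The series holds 6 Affymetrix arrays of optic fissure, 3 control and 3 mutant, grouped by their titles. Per the labels, Trizol RNA was biotin-labelled, and MAS5 is named in the submitters' processing notes, whose version is not given in the sources used here. Each deposited value is a linear intensity, 1 for every probe set and array. The trimmed mean (2%) came to 150 in each, so the authors had scaled them to a common mean, which does not correct differences in RNA quality between arrays.

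Of 45101 probe sets, 64 were manufacturer controls and were left out. The transform was log2(value + 1.7), where 1.7 is the 10th percentile of the whole table, so fold changes of dim genes are understated. Probe sets with a mean under the 40th percentile (4.07, linear 15.1) were left out, leaving 27022. Groups were compared with limma 3.58.1 (eBayes with trend and robust, statmod 1.5.0) in R 4.3.3, with Benjamini-Hochberg adjustment over all probe sets and a threshold of 0.05. The script was tested on simulated data. Each gene was read from whichever of its probe sets had the highest mean log2 value, and 22185 tested probe sets had 1 symbol, for 12282 genes. Named were all member probe sets, Fgfr1 and Fgfr2, up to 4 genes with the smallest p of each list, and the 3 most like genes by r. Aldh1a3 lies outside this rule, chosen after its value was seen, and Atoh7 is named for its low mutant signal. The marker lists also include lens, macrophage and erythroid genes. The members and lists were chosen with earlier results of these data known. Promoter windows came from RefSeq. Alternatives were other added values (1 and 16), quantile normalization, median centring, other filters, another variance model, the title number as a block, other probe set summaries and leaving out arrays. Figures used matplotlib 3.10.9 in Python 3.11.15.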

Additional observations from a re-analysis of the deposited data

How the results depend on the processing

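No member probe set passed the threshold under any of the 15 alternatives. The number of all probe sets past it was 0 in the replicate block fit, from 0 to 1 with 1 array left out and 1 without both 8711 arrays. That 1 was a probe set of Xist (1436936_s_at), lower in the mutants in both settings. Its log2 difference was -6.84 without mutant 8711 and -7.33 without both 8711 arrays. The sex of the embryos was not analysed here, and its part in the differences of the members was not tested. The deviations of same-numbered arrays correlated at 0.049 (8711), 0.481 (9216) and -0.113 (9266). Control 9216 correlated best with its own number, and controls 8711 and 9266 correlated better with another number than their own. With 3 arrays in a group, and mutant 8711 of poor quality, these values cannot decide whether the title numbers pair the arrays. Of the 11 tested member probe sets, 8 kept the sign of their difference under every alternative in which they were tested. The other 3, all of Nr2f2, changed sign. For 1416159_at the log2 difference was 0.07 with 16 added, 0.24 after quantile normalization, 0.10 after median centring, -0.66 to 1.26 with 1 array left out and 1.18 without both 8711 arrays. For 1444229_at these values were 0.11, 0.19, 0.05, -0.98 to 1.42 and 1.23. For 1416160_at they were -0.70 to 0.53 with 1 array left out and 0.71 without both 8711 arrays. Leaving out mutant 8711 gave the high end of each range, and beyond that the cause was not tested. Median centring moved the median difference of all tested probe sets from -0.049 to 0.062. Nr2e1 lies near background, and its difference was -0.91 with 16 added and -1.74 to -1.10 with 1 array left out. Over the alternatives the list median ran from -0.15 to 0.11 for the cofactors, -0.35 to -0.11 for retinal axis patterning and -0.32 to 0.42 for the vascular markers.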

Other observations

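Lens, macrophage and erythroid markers, cell types that lie beside the fissure, were also measured. Of 4 lens genes tested, 1 was higher and 3 were lower in the mutants, and the 8 on the array summed to 1074 to 1638 in the controls and to 2112, 344 and 2183 in mutants 8711, 9216 and 9266, so that mutant 9216 was far below the others. Of 11 macrophage genes 7 were higher, with sums of 1604 to 2247 in the controls and 2523 to 3062 in the mutants. Csf1r, the receptor of colony stimulating factor, had 894 ± 49.5 (SD, n = 3) in controls against 1269 ± 233 (SD, n = 3) in mutants, differing by 0.49 log2 units (SE 0.19). Of 6 erythroid genes 6 were higher, with a median of 0.33 and sums of 13389 to 18063 and 17200 to 18551, ranges that overlap. None of these genes passed the adjusted threshold in limma. At an unadjusted p under 0.05, 3 macrophage genes and 1 erythroid gene were higher, beside 4.4% of all genes tested.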
